A study of Mus musculus with 13 samples.

Results

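The regions described here are 5105 Sox9 peaks of mouse rib chondrocytes that nasal chondrocytes share, called the later shared sites below. They were chosen by measured values, in 3 steps. Each peak belongs to the submitters' Class II list, stands after place 2766 of the whole rib list and shares at least 1 bp with a Sox9 peak of nasal septum chondrocytes. They are 18.5% of the 27656 rib peaks, 24.5% of the 20862 Class II peaks and 71.2% of the Class II peaks that a nasal peak meets. Nasal peaks met 42.8% of all rib peaks and 27.9% of the 18317 Class II peaks behind place 2766. Both shares are what the choice itself used, so nothing is read from them.

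Sox9 is an HMG-box transcription factor that bends DNA and, with Sox5 and Sox6, drives the cartilage matrix genes, among them those of type II collagen and aggrecan. It often acts through several enhancers spread around 1 gene, so sites some kilobases apart can serve the same target. Rib cartilage derives from somites and most of the nasal septum from the cranial neural crest, so a site present in both lies in cartilage cells of different embryonic descent. In the published account of this series, Class II sites were described as enhancer-like and Class I sites as lying at gene starts. The lists carry no such annotation, and no distance to a gene start was computed here.

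Both Sox9 libraries came from wild-type, untreated ICR mice. Rib chondrocytes were taken at postnatal day 1 and nasal septum chondrocytes at embryonic day 17.5, each freed by enzyme digestion and precipitated with the same Sox9 antibody. Tissue and stage therefore differ together and cannot be told apart. The series holds 13 libraries, 11 from rib and 2 from nasal septum. Values from the histone mark, p300, RNA polymerase II, IgG and input libraries were not analysed here. There was 1 Sox9 library per tissue, with no replicate, and the lists give positions alone (1 line of the Class I list carries further fields, which were not used), so read depth and peak strength are unknown. No source used here says how a list was ordered, and "early" and "late" below mean place in the list only. By place, both lists were cut into 10 consecutive bins, of 2766 rib (the last slightly shorter) and of 1744 nasal peaks, so that rib bin 1 holds the early-listed peaks and rib bins 2 to 10 the later ones. The cell type could not be checked against marker genes, as the lists carry no gene levels. Peaks are not replicates, so every 95% interval below covers counting error only, and neighbouring peaks are not independent. All positions are on mm9, counted from 1.

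The later shared sites were most numerous just behind place 2766 and thinned out toward the end of the rib list. These counts describe the choice itself and carry no test. Rib bin 2 held 1369 of them, bin 3 held 964, bin 5 held 561 and bin 10 held 179. Bins 2 and 3 together held 2333, or 45.7%. In bin 2 a nasal peak met 57.9% of Class II peaks (95% exact binomial interval 55.9% to 59.9%), and in bin 10 it met 10.2% (8.86% to 11.8%). Of Class I peaks, 90.3% were met in bin 2 (87.0% to 93.0%) and 48.9% in bin 10. The median place of the later shared sites was 9067, with quartiles at 5306 and 15074, and the last peak of the whole rib list, on chromosome 13 at 41665233 to 41665539, was itself one of them. That peak was singled out after its values were seen. At the edge of the choice, the first 10 later shared sites (places 2767 to 2794) had nasal partners at places 2603 to 16178, with a median of 8396.5. The last 10 shared Class II peaks before the edge (places 2754 to 2766) had partners at places 1623 to 13702, with a median of 7155.5. The ranges on either side of the edge overlap widely. With 10 peaks on each side and places spread this far, they cannot show whether the edge marks a break in the nasal list.

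**Figure D1:**
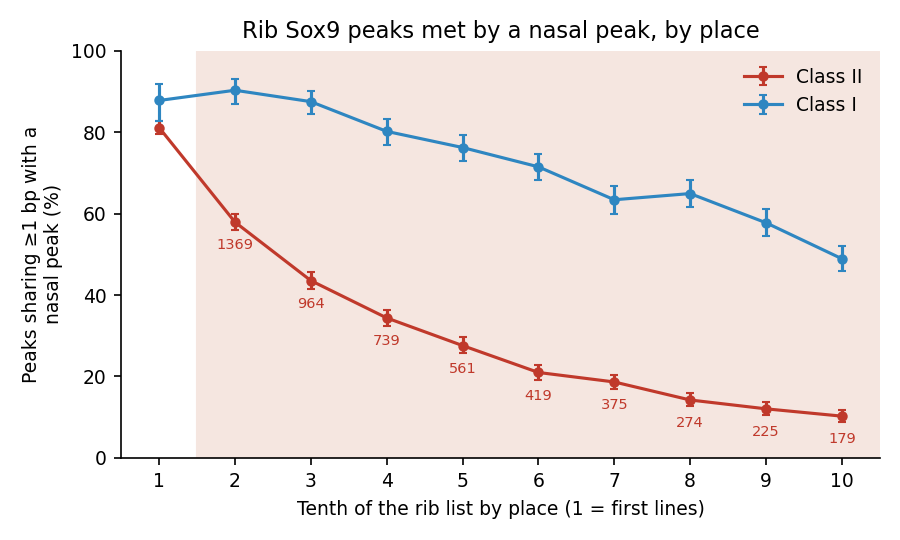
Share of rib Sox9 peaks that a nasal peak meets (vertical axis, percent) in each of the 10 rib bins by place (horizontal axis), for Class II and Class I. Bars are 95% exact binomial intervals, the shaded bins hold the later shared sites, and the numbers give how many fall in each. Class II falls from 57.9% in bin 2 to 10.2% in bin 10.

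The nasal list was not used to order the sites, so the place of each nasal partner describes them further. The 5105 sites met 5067 distinct nasal peaks as their best partner, taken as the nasal peak with the most shared bases. These partners were spread over nearly the whole nasal list of 17440 peaks, from place 41 to place 17436, with a median of 9385. Nasal bin 1 held 197 of the partners, or 3.86% (3.35% to 4.42%), and nasal bin 2 held 409. Each of nasal bins 3 to 10 held between 506 and 600, so beyond the front of the list the partners were distributed almost evenly.

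Early-listed shared Class II peaks, 2065 in number, had partners much further forward. Their median nasal place was 2955, and 34.1% of their partners (32.0% to 36.2%) stood in nasal bin 1. A partner of a later shared site stood behind a partner of an early-listed one in 0.795 of all pairs. Within the later shared sites, place in the rib list and place of the partner were loosely related, with a Spearman correlation of 0.27 over the 5105 sites, against 0.50 over the 2065 early-listed ones. Over the 4483 later-listed Class I peaks that a nasal peak meets, the correlation was 0.46. Sites of a list share 1 library, so these correlations are descriptions. The share with a partner in nasal bin 1 was 6.79% (5.52% to 8.26%) among the sites of rib bin 2, and 4.36% (3.16% to 5.84%) in rib bin 3. Of the 1472 sites in rib bins 6 to 10, 26 had such a partner.

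At the same place in the rib list, Class II sites had nasal partners further back than Class I peaks did. In rib bin 2 the median nasal place was 7038 for Class II and 2211 for Class I. In bin 5 it was 9686 against 5274, and in bin 10 it was 12052 against 9752.5. The probability that a Class II partner stood behind a Class I partner was 0.792 in bin 2, 0.808 in bin 3, 0.726 in bin 5 and 0.644 in bin 10. Class II partners thus stood further back in each of the 9 bins compared, and over all later shared peaks the probability was 0.655. The medians of the 2 classes drew closer toward the end of the list but did not meet.

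**Figure D2:**
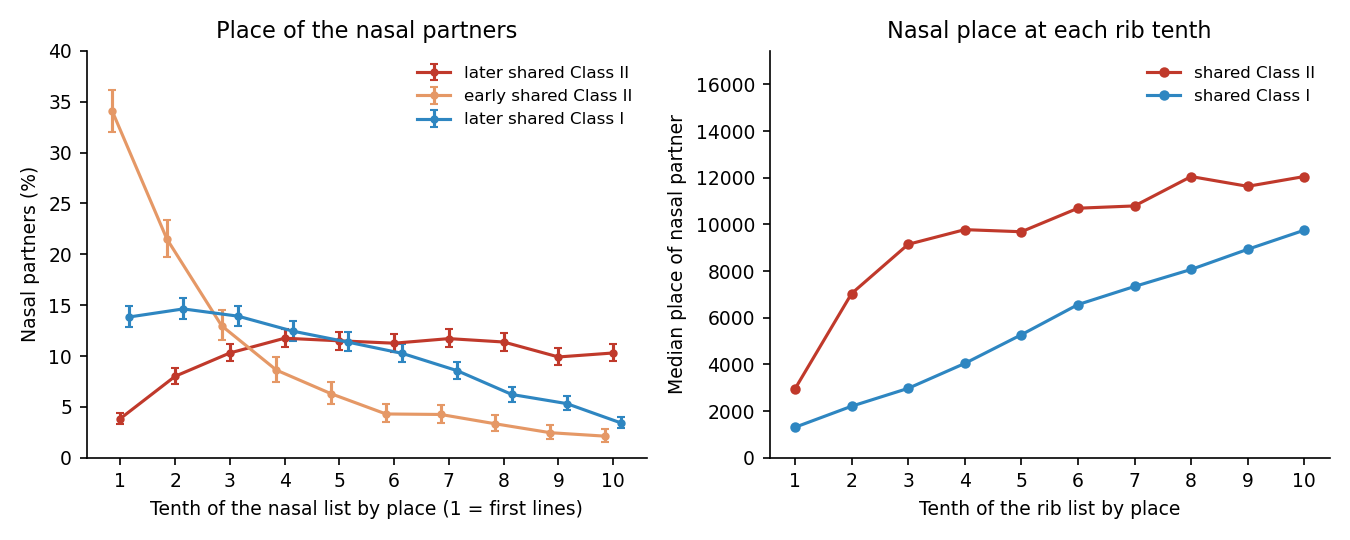
Left, share of nasal partners (percent, 95% exact binomial intervals) in each of the 10 nasal bins for later shared Class II, early shared Class II and later shared Class I peaks, with 3.86%, 34.1% and 13.8% in bin 1. Right, median place of the nasal partner in each rib bin, where Class II lies above Class I throughout.

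Seen from the nasal list, the later shared sites accounted for a nearly constant part of it beyond its start. They met 11.2% of nasal peaks in nasal bin 1 (9.79% to 12.8%), 23.3% in bin 2 and 30.1% in bin 3. From bin 4 on they met between 29.1% and 34.4% of each, and 29.3% of the whole list, or 5109 nasal peaks. Over the same range the share met by early-listed Class II peaks fell from 40.4% in bin 1 to 2.58% in bin 10, and that met by Class I peaks from 41.7% to 9.75%. Nasal peaks without a rib partner rose from 6.88% to 57.6%. In nasal bin 10, the later shared sites met 527 of 1744 peaks and Class I peaks 170.

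**Figure D3:**
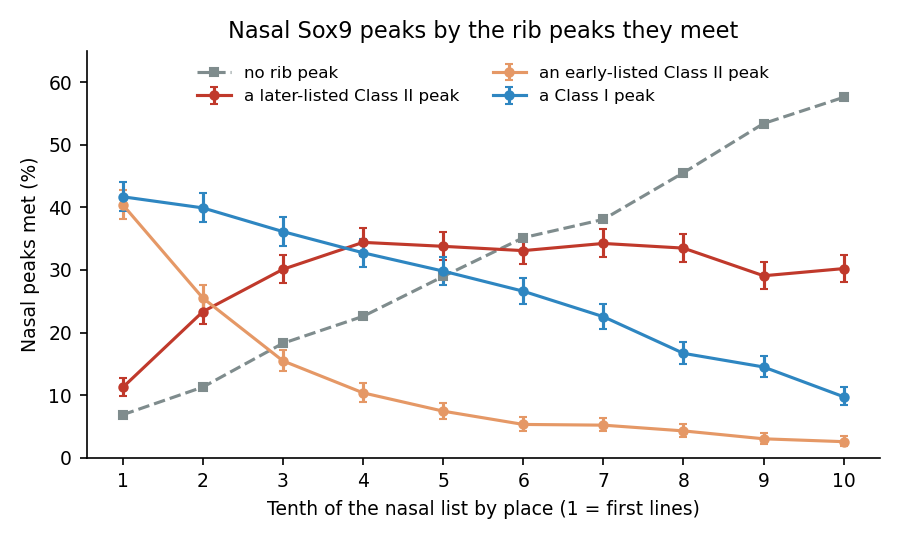
Share of nasal Sox9 peaks (percent) in each of the 10 nasal bins that meet a later-listed Class II, an early-listed Class II, a Class I or no rib peak; bars are 95% exact binomial intervals and a nasal peak can meet more than 1 kind. The later-listed Class II share is 11.2% at the start and lies between 29.1% and 34.4% from bin 4 on.

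The 5 sites with the earliest nasal partners stood at rib places 3217 to 6589, and their partners at nasal places 41 to 155. On chromosome 1, the rib peak at 13248118 to 13248265 stood at place 6589, and its nasal partner, 147 bp wide, stood at place 41. The peaks shared 146 bp, with centres 1.5 bp apart. On chromosome 5, the rib peak at 125561837 to 125561981 stood at place 6499 and its partner at place 71, and 10 other rib peaks lay within 50 kb. The sites on chromosome 19 at 38581850 to 38582037 (rib place 3217, nasal place 117) and on chromosome 4 at 114144941 to 114145066 (4117 and 155) overlapped almost fully as well, sharing 182 and 121 bp. The fifth, on chromosome 14 at 121598073 to 121598095, is a rib peak of 23 bp that shares 21 bp with the edge of a nasal peak of 376 bp at place 118. Another rib peak lay 0.138 kb from it.

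In 3 cases a site of rib bin 10 had its partner in nasal bin 1, and these are named because of that count, after their values were seen. They lay on chromosome 17 at 45388538 to 45388862 (rib place 25632, nasal place 757), on chromosome 18 at 25220105 to 25220226 (24974 and 1378) and on chromosome 1 at 40932099 to 40932267 (25799 and 1655). None of the 3 had a second nasal peak within 50 kb. The chromosome 18 site had no other rib peak within 50 kb either.

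Where they overlapped, rib and nasal peaks coincided closely. The rib peaks were a median of 181 bp wide (quartiles 140 and 230) and their nasal partners 183 bp, and a median of 134 bp was shared. Centres lay a median of 33.5 bp apart, and within 50 bp at 3358 sites, or 65.8%. At 3454 sites, or 67.7%, the shared stretch covered at least 50% of both peaks. The rib peak lay wholly within the nasal peak at 1227 sites. At 56 sites 10 bp or fewer were shared, and 117 rib peaks were narrower than 50 bp. Early-listed shared Class II peaks coincided somewhat more closely, with a median centre distance of 29 bp and 77.2% covered by at least 50% in both directions. Later shared Class I peaks coincided less closely, with 41.5 bp and 59.2%. Among the later shared sites the centre distance grew along the nasal list, from a median of 23 bp for partners in nasal bin 1 to 32.5 bp in bin 5 and 45 bp in bin 10. The median shared stretch changed little over the same nasal bins, at 138, 131 and 133 bp. Over all nasal peaks, the median width was 177 bp in nasal bin 1 and 195 bp in nasal bin 10. Along the rib list the median centre distance was 31 bp in bin 2 and 42.5 bp in bin 10. The demand for a shared base itself limits how far apart these centres can be.

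The sites with the longest shared stretches were wide peaks that overlapped over most of their length. On chromosome 6, a rib peak of 481 bp at 134471887 to 134472367 and a nasal peak of 483 bp shared 478 bp. On chromosome 16, at 56096498 to 56096973, 451 bp were shared although the rib peak stood at place 23572. The others lay on chromosome 7 at 107108909 to 107109343 (435 bp shared), on chromosome 3 at 152535420 to 152535864 (435 bp) and on chromosome 2 at 6007582 to 6008003 (415 bp). Rib places in this group ran from 3432 to 23572 and nasal places from 157 to 15005, so these 5 sites were not confined to 1 part of either list. A single site, on chromosome 5 at 37680634 to 37680776, had the same start and end in both lists, and is named for that count after its values were seen.

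Few Class II peaks narrowly missed a nasal peak. Of the 13212 later-listed Class II peaks without a nasal partner, 188 had a nasal peak at a gap of 100 bp or less, and 998, or 7.55%, within 1 kb. A nasal peak lay between 1 and 10 kb away for 24.3% of them and between 10 and 50 kb for 36.6%. The remaining 31.5% (30.7% to 32.3%) had none within 50 kb. Widths barely separated the groups, with a median of 183 bp without and 181 bp with a partner.

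More than 50% of the later shared sites had other Sox9 peaks nearby. Another rib peak lay within 10 kb, edge to edge, of 2775 sites, or 54.4% (53.0% to 55.7%), compared with 50.7% of later rib-only Class II peaks, 66.8% of early-listed shared Class II peaks and 52.9% of all rib peaks. The difference from the rib-only peaks was 3.68 percentage points (95% Newcombe interval 2.06 to 5.28). Rib-only peaks stand later in the list, and when they were weighted to the same rib bins the difference was 1.77 points, with an interval that includes 0 (-0.00851 to 3.54). The weighted difference was 1.11 points (-0.179 to 2.41) within 1 kb and 3.17 points (1.97 to 4.37) within 50 kb. Within 10 kb, the shortfall against early-listed shared peaks was larger, at -12.4 points (-14.8 to -9.95). Another Class II peak lay within 10 kb of 50.1% of the sites and of 49.6% of all Class II peaks. A Class I peak lay that near to 9.15% and 8.12%. Both shares were near those of the whole class, which includes the sites. With rib-only peaks weighted to the same rib bins, the difference for a Class II neighbour within 10 kb was 1.28 points (-0.501 to 3.06). For a Class I neighbour it was 1.22 points (0.212 to 2.23) within 10 kb and 6.05 points (4.39 to 7.72) within 50 kb. Early-listed shared Class II peaks had a Class I peak within 50 kb in 34.2% of cases, against 34.9% of the sites. The share was 31.0% over all Class II peaks and 38.8% over all rib peaks, which include the Class I peaks themselves. Early-listed Class II peaks stood within 10 kb of 11.8% of the later shared sites and of 11.7% of the later rib-only peaks, a difference of 0.0895 points (-0.932 to 1.15) as they stand and of -1.01 points (-2.19 to 0.173) with the rib-only peaks weighted to the same rib bins.

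Apart from the peaks touching it, a nasal peak lay within 10 kb of 38.9% of the sites (37.6% to 40.3%), close to the 38.7% over all rib peaks. The share was lower among later rib-only Class II peaks, at 31.8% (31.0% to 32.6%), and higher among early-listed shared Class II peaks, at 44.8%, and later shared Class I peaks, at 43.8%. Weighted to the same rib bins, the sites exceeded the rib-only peaks by 6.63 points. Overlap with the nasal list split these groups, and the neighbour counted comes from that list, so this excess is a description only. Against later shared Class I peaks weighted to the same rib bins, the sites fell short by a difference of -5.56 points (-7.87 to -3.25). A further nasal peak nearby was thus no trait of the later shared sites alone. Another later shared site lay within 10 kb of 21.1% of the sites, and of 15.4% of the rib-only peaks and 23.2% of the early-listed shared peaks. Over all Class II peaks the share was 17.6%, and over all rib peaks 15.3%. Overlap with a nasal peak, which the choice used, sets both these groups and the neighbour counted, so these shares are a description only. Some neighbouring sites touch the same nasal peak, and without such neighbours the share among the sites was 19.9%. Sites without any other rib or nasal peak within 50 kb numbered 494, or 9.68%. Such lone peaks made up 13.9% of the rib-only group, 7.31% of the early-listed shared group and 11.8% of all rib peaks. The nasal list enters this count as well, so these shares too are a description.

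**Figure D4:**
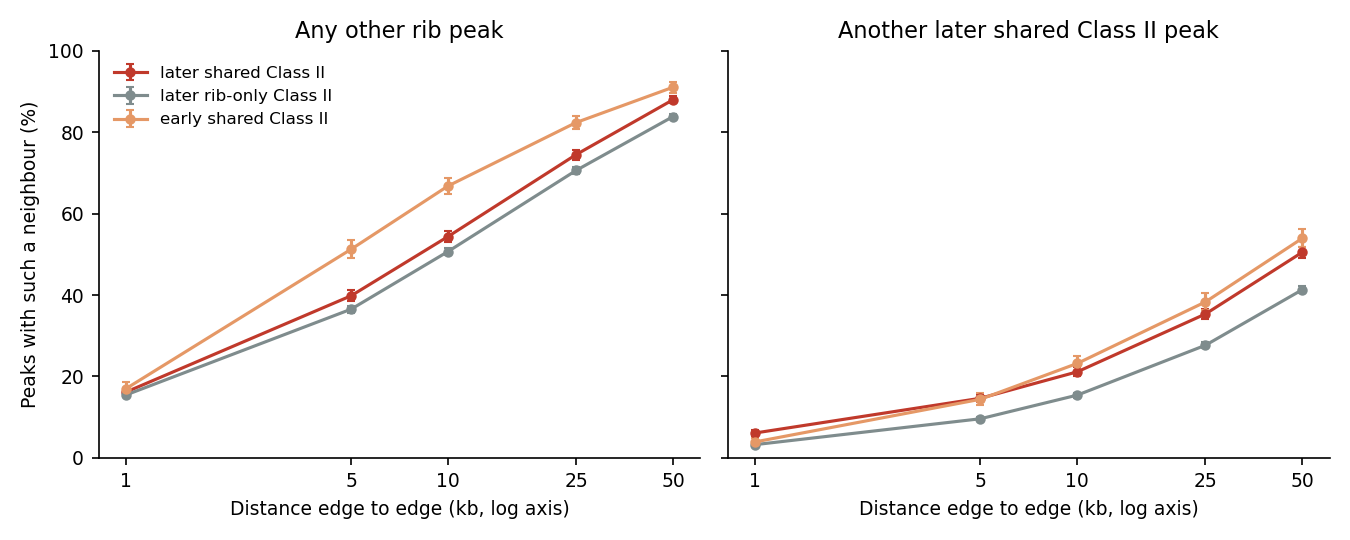
Share of peaks (percent, 95% exact binomial intervals) with another rib peak (left) or another later shared Class II peak (right) within a distance given in kb on a log axis, for later shared, later rib-only and early shared Class II peaks. At 10 kb the shares are 54.4%, 50.7% and 66.8% on the left and 21.1%, 15.4% and 23.2% on the right. The neighbours on the right are set by the overlap that the choice used, so that panel is a description only.

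The nasal status of neighbouring Class II peaks is given as a description, with no interval, since overlap with a nasal peak is what the choice used. Each later-listed Class II peak was set beside its nearest later-listed Class II neighbour, so a pair can enter from both ends. Within 1 kb, 42.9% of the peaks beside a neighbour met by a nasal peak were themselves met, and 23.8% beside a neighbour that was not. For 84 of these peaks, peak and neighbour touched the same nasal peak, and without them the first share was 35.2%. With the neighbour over 1 and up to 10 kb away the shares were 33.6% and 27.6%. Over 10 and up to 50 kb away they were 31.0% and 27.7%, and beyond 50 kb they were 26.7% and 22.6%. By rib bin, for neighbours within 10 kb and without pairs on 1 nasal peak, the shares lay furthest apart in bin 3, at 54.6% and 39.0%, and closest in bin 9, at 15.02% and 10.82%.

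Counted among themselves alone, most later shared sites had no other within 10 kb. Taken alone and joined where gaps were 10 kb or less, 4026 of them, or 78.9%, joined no other, 394 chains held 2, and 89 chains held at least 3. Those 89 chains held 291 sites, or 5.70%. The 78.9% describes spacing among the sites only. Another site lay within 10 kb of 21.1% of them, beside 17.6% of all Class II peaks and 15.3% of all rib peaks. Another Class II peak of any kind lay that near to 50.1% of the sites. The longest chain, on chromosome 10 from 82596691 to 82615342, held 7 sites over 18.7 kb, with 1 early-listed Class II peak, 1 rib-only peak and 8 nasal peaks in the same span. Its sites came from rib places 3152 to 18414 and had partners at nasal places 2044 to 14985. The 3 chains of 5 lay on chromosome 3 from 90388405 to 90391897, on chromosome 17 from 45909658 to 45932114 and on chromosome 19 from 5805948 to 5823711. The chain on chromosome 3 was the most compact, with 5 sites in 3.49 kb. None of these 3 held an early-listed Class II peak or a Class I peak. First among the 14 chains of 4 was that on chromosome 2 from 32738002 to 32743744, where all 4 rib peaks were later shared sites.

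Counted in fixed windows of 100 kb, the sites occupied 3583 of the 10651 windows that held a rib peak. A window held a single site in 2550 cases and 5 or more in 35. A window free of Class I and of early-listed Class II peaks held 2428 of the sites, or 47.6%, beside 51.1% of all later-listed Class II peaks.

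Of the 2 windows with the most sites, the first was on chromosome 2, 32700001 to 32800000, with 9 sites among 17 rib peaks. They fell into 2 groups, 5 between 32723032 and 32743744 and 4 between 32768058 and 32773334. Their rib places were 2780 to 7439, a narrow range near the front, whereas their partners ran from nasal place 1667 to 14235. The site at 32743628 to 32743744 had the earliest partner, at place 1667, and the site at 32770455 to 32770664 the latest. The 5 rib-only Class II peaks of the window stood further back in the rib list than all 9 sites, at places 9178 to 24232. The window also held 1 early-listed Class II peak, 2 Class I peaks and 12 nasal peaks.

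The window on chromosome 10, 82600001 to 82700000, held 9 sites as well, among 14 Class II peaks and no Class I peak. Besides the sites it held 3 rib-only and 2 early-listed Class II peaks. The sites covered 58.9 kb and stood at rib places 3152 to 20431. The site at 82607056 to 82607234 had its partner at nasal place 2044, a narrow peak from 82607065 to 82607099 that lay wholly inside it. The site at 82601992 to 82602297 had its partner at place 13343, and all of its 306 bp were shared.

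On chromosome 15, 59400001 to 59500000 held 8 sites among 15 rib peaks and 13 nasal peaks. Another window on that chromosome, 59600001 to 59700000, held 6 sites out of 8 rib peaks, and the one at 36800001 to 36900000 held 6 out of 9. On chromosome 18, 80800001 to 80900000 held 7 sites among 12 rib peaks, none of Class I, spread over 56.6 kb. The window on chromosome 6, 37300001 to 37400000, held 6 sites beside 13 rib-only Class II peaks, so 31.6% of its later-listed Class II peaks were met, against 27.9% over the whole list. Of the 7 windows with 6 sites, 1 was left out by the order of ties, and the remaining 3 named were on chromosome 7 at 73300001 to 73400000, on chromosome 9 at 63500001 to 63600000 and on chromosome 11 at 79400001 to 79500000. In the first 2 of these no early-listed Class II peak and no Class I peak was present. The window on chromosome 11 held 1 rib-only Class II peak. All 10 windows were picked for holding many sites, so a high share of met peaks in them is part of the choice.

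**Figure D5:**
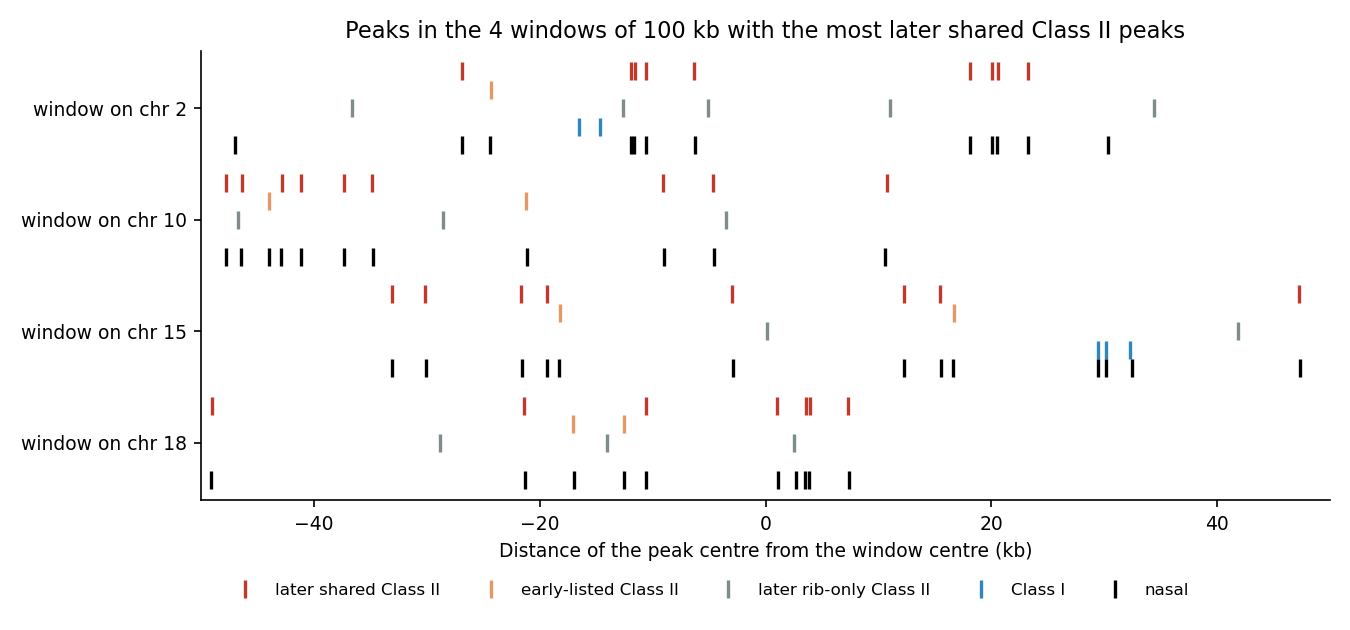
Peaks in the 4 windows of 100 kb with the most later shared Class II peaks, drawn as ticks at the distance of their centre from the window centre (kb), with later shared, early-listed and later rib-only Class II, Class I and nasal peaks on separate lines. The windows on chromosomes 2, 10, 15 and 18 hold 9, 9, 8 and 7 later shared sites.

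By chromosome, the share of later-listed Class II peaks that a nasal peak met is again what the choice used, and is given as a description. It ran from 25.1% on chromosome 1 to 31.8% on chromosome 19, with a median of 28.4% over the 19 autosomes. On chromosome X 33 of 186 peaks were met, or 17.7%, where autosomal peaks weighted to the same rib bins gave 26.6%. The lower share on chromosome X was not particular to Class II. Of later-listed Class I peaks there, 52 of 91 were met, or 57.1%, against 59.8% to 73.3% on the autosomes. Later shared sites numbered 1.49 to 2.82 per Mb on the autosomes, each measured up to its last peak, and 0.198 per Mb on chromosome X. All later-listed Class II peaks numbered 5.78 to 9.61 per Mb on the autosomes and 1.12 on chromosome X, so the density there was also low among the peaks from which the sites were chosen.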

How the data were processed

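Each of the 4 lists the authors deposited holds the positions of peaks, used here without any score or count, and comes from 1 of the 2 Sox9 libraries. The build is mm9, per the submitters' processing notes. For the aligner, peak caller, control library, list order and class definition, no statement was found in the labels (not given in the sources used here).

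Starts were raised by 1. Sites were found by at least 1 shared bp and by place behind place 2766, and the partner was the nasal peak with the most shared bases. Distances were edge to edge. Shares have exact (Clopper-Pearson) 95% binomial intervals, differences Newcombe intervals, and weighted differences normal intervals over rib bins. No p-value was computed, as there was 1 library per tissue. Named regions were the 10 windows of 100 kb with the most sites, the 5 longest chains, and the 5 sites each with the earliest partners and the most shared bases, other sites being named as chosen afterwards. Sites and lists were chosen with earlier results of these data known. Other overlaps, place limits, distances, bins and weightings were tried. Routines were tested on simulated lists. Distances to genes, gene lists and motifs need an mm9 genome or annotation and were not run. Site density was also set against the number of RefSeq genes per chromosome, which is not reported because that annotation is of another build. Software was Python 3.11.15 with scipy 1.17.1, numpy 2.4.6, pandas 2.3.3 and, for intervals and plots, statsmodels 0.14.6 and matplotlib 3.10.9.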

Additional observations from a re-analysis of the deposited data

How the results depend on the processing

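Of 26 recomputed values, 12 stayed within the main interval, or within 1.5 times for counts, 14 moved and 0 changed direction. The number of sites ran from 3454 with at least 50% of both peaks shared to 6103 with gaps of up to 1 kb. The share of partners in nasal bin 1, 3.86%, was 4.517% with at least 50% of both peaks shared, 5.511% with the place limit moved forward by 50% and 2.784% with it moved back to the end of rib bin 2. The share with another rib peak within 10 kb, 54.4%, was 16.16% within 1 kb, 39.8% within 5 kb, 74.5% within 25 kb and 87.97% within 50 kb, which a wider distance must raise, and 52.66% with at least 50% of both peaks shared. Its difference from later rib-only peaks, 3.68 points, was 0.7125 at 1 kb, 1.18 with at least 50% of both peaks shared, 12.25 with gaps of up to 1 kb and 1.768 with rib-only peaks weighted to the same rib bins. The share with another later shared site within 10 kb, 21.1%, was 19.86% without neighbours on the same nasal peak. The settings for this share and for the difference were chosen after seeing the data, and the cause of these moves was not tested. With bins of 1 Mb the fullest window held 19 sites, on chromosome 11 at 113000001 to 114000000, and 5 of the 10 named windows lay in the 10 fullest. With bins of 100 kb shifted by 50 kb the fullest held 10, on chromosome 10, and 3 of the 10 named windows met the 10 fullest. The named windows therefore depend on the bins. Other limits for the distance to gene starts and other windows for the SOX motif, both of which need mm9 sequence or annotation, were not run. No paired analysis was possible because each tissue had 1 Sox9 library.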
